A study of Homo sapiens with 6 samples.

Results

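Genes that encode brakes on mitogen-activated protein (MAP) kinase signalling were examined in T47D cells, an established human luminal breast cancer line. The set holds 10 of the 20333 gene intervals in the deposited table: the phosphatase genes DUSP1, DUSP4, DUSP5, DUSP6, DUSP10 and DUSP16, and the feedback inhibitor genes SPRY1, SPRY2, SPRY4 and SPRED2. They were chosen by name from what their products do, and all 10 had at least 10 counts in a library and were tested among 19902 intervals. The assay was PRO-seq, a nuclear run-on method that labels nascent RNA at the polymerases that are transcribing when cells are opened, so that reads report ongoing transcription and not stored RNA. The cells, labelled as estrogen receptor positive and HER2 negative, were treated for 5 h in growth factor-complete medium. Control cells were given the solvent DMSO. The inhibitor arm was given 500 nM GDC0068, which blocks AKT kinase activity. The remaining arm was given 100 nM INY-05-040, a degrader that removes AKT protein, and is named Degrader below. Per the series description, the doses differ because they were picked to suppress signalling below AKT to a similar degree. Each arm had 2 libraries from 2 independent experiments.

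In MAP kinase cascades, a growth factor receptor or a stress signal starts a relay of kinases that ends in ERK, JNK or p38. Dual specificity phosphatases (DUSPs) of the MAP kinase phosphatase type remove phosphate from both the threonine and the tyrosine that activate these end kinases. Sprouty (SPRY) and SPRED proteins act higher up and restrain the path from the receptor through RAS to ERK. Several of these genes are themselves switched on by ERK signalling, so that their transcription is often read as a sign of ERK output. AKT lies on the parallel branch that runs from the same receptors through PI3K.

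Library totals ran from 25371819 to 32192576 counts. The members' counts per library ran from 126 for SPRY4 to 5181 for SPRED2, which gives a counting error of 8.91% for the lowest and 1.39% for the highest. Levels are given as CPM, a gene's share of the scaled library total, and every difference is relative to the bulk of genes. Libraries come from many cells, so a change per cell and a change in the share of cells that transcribe a gene cannot be told apart. All 8 luminal markers examined were transcribed, with sums of 5137 to 5511 CPM per library, and ESR1, the estrogen receptor gene, stood at 1014 to 1209 CPM. ERBB2, which encodes HER2, was also transcribed, at 172 to 193 CPM. Of the markers of other cell types examined, only the interval of CD68 was in the table, at 83.6 and 77.2 CPM in DMSO, 62.6 and 67.6 CPM under GDC0068 and 64.4 and 55.1 CPM under Degrader. Its part in the results was not tested.

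Under Degrader, the brakes did not move as a block. DUSP6, DUSP10, DUSP16 and SPRED2 passed the edgeR test at an adjusted p under 0.05, with rises of 1.12-fold to 1.30-fold. Of all intervals, 15.3% passed it, 7.39% with a rise. The results for DUSP6, DUSP10 and DUSP16 depended on single libraries, and DUSP16 did not pass with DESeq2. The Sprouty genes and DUSP1, DUSP4 and DUSP5 did not pass the edgeR test. Under GDC0068 no member passed. Log2 fold changes were positive for 8 of the 10 and negative for 2 under GDC0068, with DUSP1 at 0.04 and SPRY4 at 0.02. Under Degrader 6 were positive and 4 negative. All were taken against the same DMSO libraries, and the count of signs was not tested. The changes were small in both arms, and the largest was that of DUSP6 under Degrader.

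The levels per kilobase (kb) of interval give the order of the members. DUSP1 was the most heavily transcribed, with 18.5 ± 0.18 CPM per kb in DMSO (SD, n = 2). Its mean over the 6 libraries, 18.6 CPM per kb, was above 96.5% of the intervals tested. In DMSO, DUSP4 followed with 5.14 ± 0.58 and DUSP6 with 4.09 ± 0.32 CPM per kb. SPRY1 had 3.03 ± 0.053, SPRY2 2.38 ± 0.074 and DUSP5 1.68 ± 0.060 CPM per kb. The long genes came last but for SPRY4, with 1.14 ± 0.015 CPM per kb for SPRED2, 0.880 ± 0.0041 for DUSP16, 0.559 ± 0.00065 for DUSP10 and 0.347 ± 0.015 for SPRY4. Over all arms the median interval had 1.71 CPM per kb. This order held in each of the 6 libraries except at 2 places. SPRY1 was above SPRY2 in 5 of 6 libraries, the exception being GDC0068 replicate 1 (2.54 against 3.09 CPM per kb). DUSP5 was above SPRED2 in 5 of 6, the exception being Degrader replicate 2 (1.44 against 1.46 CPM per kb). In both DMSO libraries each pair kept its order. A short interval holds a larger part of the polymerases that pause near a start site, and the interval lengths here ran from 3.1 kb for DUSP1 to 122 kb for SPRED2, so this order mixes pausing and elongation.

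**Figure D1:**
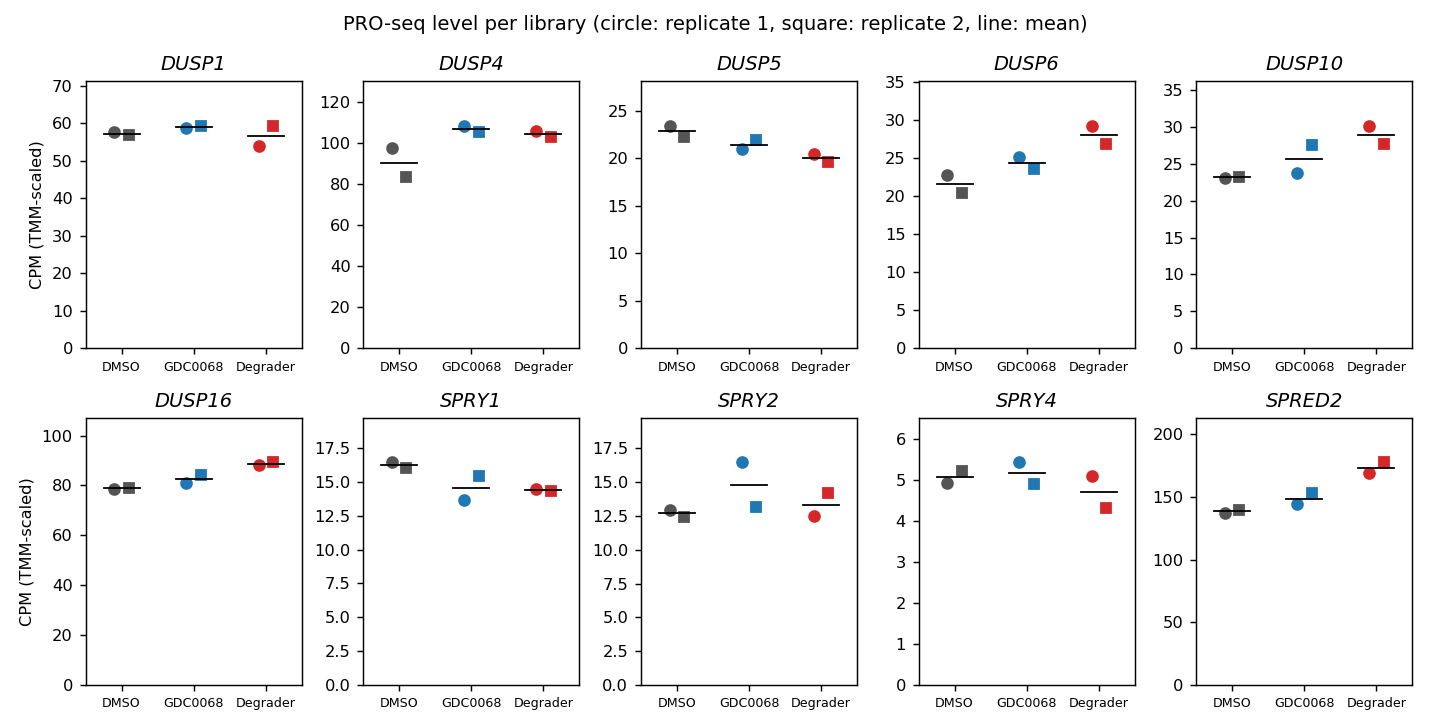
PRO-seq level in CPM (vertical axes, each from 0) of the 10 genes in each library of the DMSO, GDC0068 and Degrader arms. Circles are replicate 1, squares replicate 2 and lines the mean of the 2 libraries. DUSP6, DUSP10, DUSP16 and SPRED2 lie higher in both Degrader libraries than in both DMSO libraries, and DUSP1 lies at 53.9 to 59.4 CPM in all 6.

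The phosphatase of ERK in the cytoplasm, DUSP6 (MKP-3), had the largest fold change. DUSP6 (ENSG00000139318, chromosome 12, 89347235 to 89352497, minus strand) stood at 22.7 and 20.3 CPM in the DMSO libraries, 25.1 and 23.5 CPM under GDC0068 and 29.2 and 26.8 CPM under Degrader. The 3 arms did not overlap, with DMSO lowest and Degrader highest. Degrader raised it over DMSO by 0.38 on the log2 scale (SE 0.0903, edgeR adjusted p = 0.0164), or 1.30-fold. It was 0.36 between the libraries of replicate 1 and 0.40 between those of replicate 2. The call was lost without DMSO replicate 2 (0.30, edgeR adjusted p = 0.112) and without Degrader replicate 1 (0.32, edgeR adjusted p = 0.111). Under GDC0068 the value was 0.17 (95% interval -0.03 to 0.37, edgeR adjusted p = 0.326).

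The phosphatases that act mainly on JNK and p38, DUSP10 (MKP-5) and DUSP16 (MKP-7), also rose under Degrader. DUSP10 (ENSG00000143507, chromosome 1, 221701424 to 221742895, minus strand) had 23.2 and 23.2 CPM in DMSO, 23.8 and 27.6 CPM under GDC0068 and 30.2 and 27.7 CPM under Degrader. The Degrader libraries were both above the GDC0068 ones, the lower of them by less than 0.1 CPM. Degrader raised DUSP10 by 0.32 on the log2 scale (SE 0.0919, edgeR adjusted p = 0.0361), with 0.38 in replicate 1 and 0.26 in replicate 2. DUSP16 (ENSG00000111266, chromosome 12, 12473282 to 12562863, minus strand) had 78.6 and 79.1 CPM in DMSO, 80.8 and 84.3 CPM under GDC0068 and 88.2 and 89.3 CPM under Degrader. The 3 arms of DUSP16 did not overlap. Its log2 fold change under Degrader was 0.17 (SE 0.0496, edgeR adjusted p = 0.0396), or 1.12-fold, with 0.17 in each replicate. Both calls were lost when any 1 of the 4 DMSO and Degrader libraries was left out: edgeR adjusted p ran from 0.0857 without Degrader replicate 2 to 0.192 without Degrader replicate 1 for DUSP10, and from 0.120 without DMSO replicate 2 to 0.231 without Degrader replicate 2 for DUSP16. For these removals the log2 fold changes lay between 0.26 and 0.37 for DUSP10 and between 0.15 and 0.18 for DUSP16. DESeq2 did not call DUSP16 (DESeq2 adjusted p = 0.117). Under GDC0068 the values were 0.15 for DUSP10 (95% interval -0.05 to 0.36) and 0.07 for DUSP16 (-0.04 to 0.18), and neither was called. An interval on the opposite strand, AC007619.1, covers 6.70% of the DUSP16 interval. With its counts subtracted the DUSP16 value under Degrader was 0.18 (edgeR adjusted p = 0.0355).

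SPRED2, which encodes a membrane-bound inhibitor that acts on RAS together with neurofibromin, had the smallest adjusted p of the set. SPRED2 (ENSG00000198369, chromosome 2, 65310851 to 65432518, minus strand) stood at 137 and 140 CPM in DMSO, 145 and 153 CPM under GDC0068 and 169 and 178 CPM under Degrader. The arms did not overlap, and the step from GDC0068 to Degrader was wider than that from DMSO to GDC0068. Its log2 fold change under Degrader was 0.32 (SE 0.0510, edgeR adjusted p = 0.00200), or 1.25-fold, with 0.30 in replicate 1 and 0.35 in replicate 2. This call held when each of the 6 libraries was left out in turn (0.28 to 0.36, edgeR adjusted p up to 0.0380). Under GDC0068 the value was 0.10 (95% interval -0.01 to 0.22, edgeR adjusted p = 0.285), and with the replicate number as a block it was called (0.10, edgeR adjusted p = 0.0396). An interval on the same strand, AC012370.1, covers 6.23% of the SPRED2 interval, and with its counts subtracted the Degrader value stayed at 0.32 (edgeR adjusted p = 0.00215).

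The nuclear phosphatases DUSP1 (MKP-1), DUSP4 (MKP-2) and DUSP5 are products of genes that growth factors induce quickly. DUSP4 (ENSG00000120875, chromosome 8, 29333064 to 29350673, minus strand) had 97.6 and 83.3 CPM in DMSO, 109 and 105 CPM under GDC0068 and 106 and 103 CPM under Degrader. All 4 drug libraries were above both DMSO libraries, which lay far apart from each other. The log2 fold change was 0.24 under GDC0068 (SE 0.0673, edgeR adjusted p = 0.0714) and 0.21 under Degrader (SE 0.0673, edgeR adjusted p = 0.0574), neither of them called. With the replicate number as a block both were called, with 0.24 (edgeR adjusted p = 1.96e-04) and 0.21 (edgeR adjusted p = 3.86e-04). The Degrader value was called at 0.33 without DMSO replicate 1 (edgeR adjusted p = 0.0182) and was 0.10 without DMSO replicate 2 (edgeR adjusted p = 0.353). It was also called with robust estimation (edgeR adjusted p = 0.0453). The GDC0068 value was 0.36 with DMSO replicate 1 left out and 0.13 with DMSO replicate 2 left out, called in neither case.

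DUSP1 (ENSG00000120129, chromosome 5, 172768096 to 172771195, minus strand) was the flattest of the set. It had 57.7 and 56.9 CPM in DMSO, 58.8 and 59.4 CPM under GDC0068 and 53.9 and 59.4 CPM under Degrader, where the libraries straddled those of DMSO. The 95% intervals of the log2 fold change were -0.15 to 0.11 under Degrader and -0.09 to 0.18 under GDC0068. DUSP5 (ENSG00000138166, chromosome 10, 110497907 to 110511533, plus strand), which acts on ERK alone, had 23.4 and 22.3 CPM in DMSO, 20.9 and 21.9 CPM under GDC0068 and 20.4 and 19.6 CPM under Degrader. Its arms did not overlap and ran in the reverse order of those of DUSP6, with Degrader lowest. The difference was not called, at -0.19 under Degrader (95% interval -0.38 to -0.01, edgeR adjusted p = 0.153) and -0.09 under GDC0068 (-0.28 to 0.09).

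The Sprouty genes, whose products block signalling between receptor tyrosine kinases and RAS or RAF, had the fewest counts. SPRY1 (ENSG00000164056, chromosome 4, 123398393 to 123403760, plus strand) had 16.5 and 16.1 CPM in DMSO, 13.6 and 15.4 CPM under GDC0068 and 14.5 and 14.3 CPM under Degrader. All 4 drug libraries were below both DMSO libraries. The log2 fold changes of -0.17 under Degrader (95% interval -0.39 to 0.04) and -0.16 under GDC0068 (-0.37 to 0.05) were not called. SPRY2 (ENSG00000136158, chromosome 13, 80335976 to 80341305, minus strand) had 13.0 and 12.4 CPM in DMSO, 16.5 and 13.2 CPM under GDC0068 and 12.5 and 14.2 CPM under Degrader. The high GDC0068 value rested on replicate 1, without which the log2 fold change went from 0.22 to 0.05. SPRY4 (ENSG00000187678, chromosome 5, 142310427 to 142325019, minus strand) had 4.92 and 5.22 CPM in DMSO, 5.43 and 4.90 CPM under GDC0068 and 5.08 and 4.32 CPM under Degrader. Its arms overlapped, and its 95% interval under Degrader, -0.44 to 0.23, was the widest of the set.

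**Figure D2:**
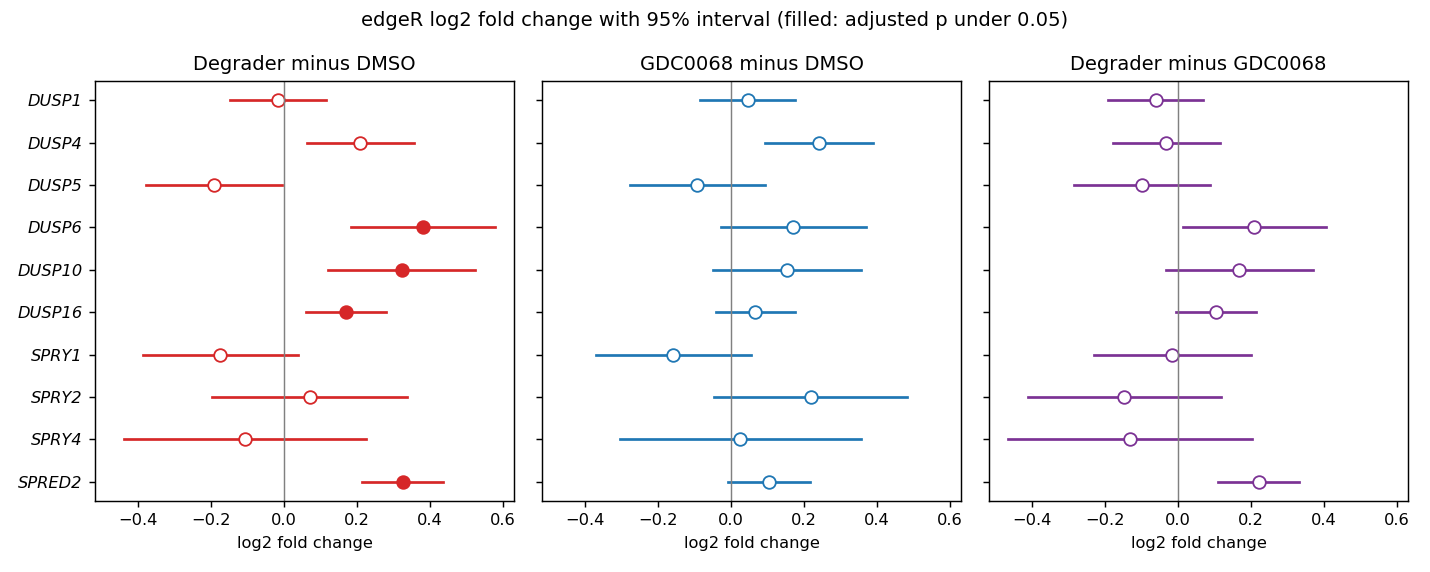
edgeR log2 fold change (horizontal axis) of each gene in the 3 comparisons, with its 95% interval as a line and filled points for an adjusted p under 0.05. Filled points appear only against DMSO under Degrader, for DUSP6 (0.38), SPRED2 (0.32), DUSP10 (0.32) and DUSP16 (0.17).

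Counted over the set, edgeR called 4 of 10 members under Degrader, all higher. Over all intervals tested, 15.3% were called in that comparison and 7.39% were called higher and 7.88% lower. Adding the replicate number as a block gave 5 of 10, again all higher, beside 30.7% of all intervals called and 15.1% called higher. The count fell when any DMSO or Degrader library was left out, which leaves 1 library in an arm. Calls over all intervals fell in the same fits. The members' median log2 fold change lay between 0.070 and 0.17 in them. DESeq2 called 3 and limma-voom 4. The median log2 fold change of the 10 members was 0.12, with -0.00 over all intervals, and it was 0.08 within replicate 1 and 0.18 within replicate 2. The Degrader and DMSO libraries did not overlap for 5 members that were higher and 2 that were lower, where 58.6% of all intervals were separated, 29.3% upward and 29.2% downward.

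Under GDC0068, edgeR called 0 of 10 members, as did DESeq2 and limma-voom, and 1 member had an unadjusted edgeR p under 0.05. DESeq2 gave no adjusted p for SPRY4 there, which was taken as not called. Over all intervals 3.58% were called, 1.7% higher and 1.88% lower. With the replicate block 2 members were called, DUSP4 and SPRED2, both higher, where 17.8% of all intervals were called and 8.87% called higher. The median of the members was 0.09, with 0.01 over all intervals, and it was 0.06 within replicate 1 and 0.09 within replicate 2. Libraries did not overlap for 9 of the 10 members, 7 higher and 2 lower, with 50.1% of all intervals separated, 26.1% upward and 24% downward. Both drug comparisons use the same DMSO libraries, so a high or low DMSO value moves both in the same way.

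**Figure D3:**
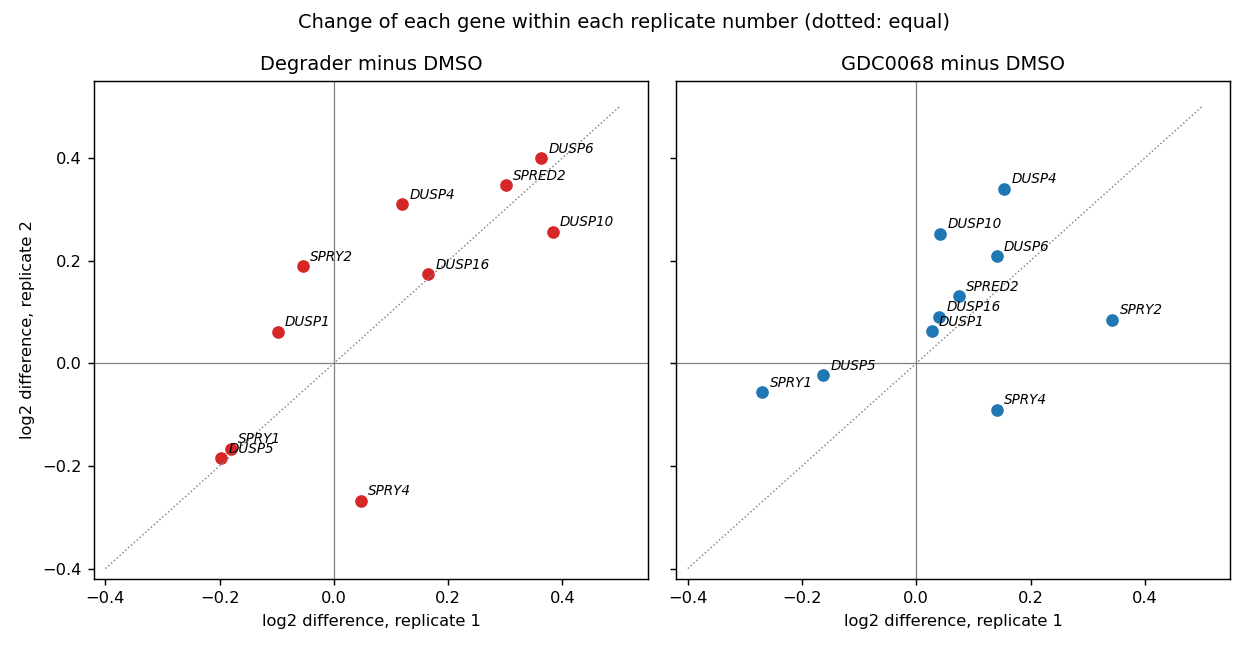
Log2 difference from DMSO of each gene between the libraries of replicate 1 (horizontal axis) and between those of replicate 2 (vertical axis), for Degrader (left) and GDC0068 (right); the dotted line marks equal values. Under Degrader, DUSP6, DUSP10, DUSP16, DUSP4 and SPRED2 lie in the upper right and DUSP5 and SPRY1 in the lower left, while DUSP1, SPRY2 and SPRY4 changed sign between the replicates.

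The direct comparison of Degrader with GDC0068 called 0 of 10 members in edgeR, DESeq2 and limma-voom, beside 0.266% of all intervals in edgeR. Unadjusted p-values under 0.05 numbered 2, for DUSP6 and SPRED2. SPRED2 was higher under Degrader by 0.22 (SE 0.0510, 95% interval 0.11 to 0.33, edgeR adjusted p = 0.0965), with 0.23 in replicate 1 and 0.22 in replicate 2. With the replicate block it was called (0.22, edgeR adjusted p = 1.19e-04), the only member so called, where 10.4% of all intervals were, 5.03% higher and 5.35% lower. DUSP6 differed by 0.21 (95% interval 0.01 to 0.41, edgeR adjusted p = 0.324). DUSP10 differed by 0.17 (-0.03 to 0.37) and DUSP16 by 0.10 (-0.01 to 0.21). DUSP4 had nearly equal levels under both drugs, with a difference of -0.03 (-0.18 to 0.11). The Sprouty genes differed by -0.02 for SPRY1 (-0.23 to 0.20), -0.15 for SPRY2 (-0.41 to 0.12) and -0.13 for SPRY4 (-0.47 to 0.20), intervals too wide to show that the drugs act alike on them. Of the 10 members, 5 had separated libraries, 4 higher and 1 lower under Degrader, beside 45% of all intervals, 22.1% higher and 22.9% lower. The median over the members was -0.02, while it was 0.03 within replicate 1 and 0.00 within replicate 2.

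The promoters of DUSP1, which was not called, and of 3 members called higher under Degrader, DUSP6, DUSP16 and SPRED2, are printed. Each is the 250 bases before the gene's start site in RefSeq on GRCh38.p14, on the minus strand, at chr5:172771196-172771445, chr12:89352502-89352751, chr12:12562864-12563113 and chr2:65432600-65432849. The RefSeq start lies 0, 4, 0 and 81 bp from the start of the deposited interval. Capitals mark matches to TGACGTCA, the cyclic AMP response element (CRE), or to its short form TGACG.
DUSP1: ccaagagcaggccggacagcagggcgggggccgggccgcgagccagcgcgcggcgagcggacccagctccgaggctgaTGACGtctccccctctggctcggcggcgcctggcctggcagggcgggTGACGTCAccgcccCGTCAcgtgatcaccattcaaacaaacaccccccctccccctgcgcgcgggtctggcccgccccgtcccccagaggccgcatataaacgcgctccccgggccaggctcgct
DUSP6: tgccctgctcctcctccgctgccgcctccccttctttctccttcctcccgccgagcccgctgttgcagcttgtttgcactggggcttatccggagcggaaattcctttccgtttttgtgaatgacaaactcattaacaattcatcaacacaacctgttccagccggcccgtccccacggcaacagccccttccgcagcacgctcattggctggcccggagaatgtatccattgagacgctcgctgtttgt
DUSP16: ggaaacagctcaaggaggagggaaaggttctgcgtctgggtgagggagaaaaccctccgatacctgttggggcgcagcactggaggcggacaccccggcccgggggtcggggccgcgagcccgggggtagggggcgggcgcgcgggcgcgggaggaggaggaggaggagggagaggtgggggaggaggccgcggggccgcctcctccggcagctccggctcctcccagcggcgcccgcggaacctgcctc
SPRED2: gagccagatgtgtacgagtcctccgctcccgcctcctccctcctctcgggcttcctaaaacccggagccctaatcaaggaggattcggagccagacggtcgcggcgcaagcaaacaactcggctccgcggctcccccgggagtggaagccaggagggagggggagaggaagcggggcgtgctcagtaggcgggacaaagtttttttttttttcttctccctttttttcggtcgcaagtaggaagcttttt
DUSP1 holds 1 full CRE, from 125 to 118 bases before the start, and 4 short forms, of which 2 lie within the full one. The other 3 windows hold neither, and no match to TGANTCA (AP-1), CCGGAAGT (ETS) or GTAAACA (FOXO) on either strand. Over all 35116 RefSeq windows of that length, 1.65% hold the CRE, 21.2% the short form, 6.57% the AP-1 letters, 3.42% the ETS letters and 2.98% the FOXO letters. Windows were given for 8 of the 10 members, 13 windows in all, among which SPRY2 and SPRY4 hold 1 short form each and no other matches were found. SPRY1, which was not called either, thus has no match. A link between the matches and the changes was not tested. The nearest window given for DUSP10 starts 806 bp from the start of its interval, so it is not printed.

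Genes with the profile closest to DUSP6, the member with the largest change, were sought among 13888 intervals with a mean of at least 10 CPM. Likeness was the root-mean-square distance of log2 CPM over the 6 libraries, each gene centred on its DMSO mean. The closest were RAB17 at 0.027, MYB at 0.031 and AC010655.3 at 0.032 on the log2 scale. RAB17, which encodes a small GTPase of epithelial cells, had 47.3 and 40.3 CPM in DMSO, 51.5 and 47.7 CPM under GDC0068 and 57.8 and 54.3 CPM under Degrader. MYB, which encodes a transcription factor, had 68.6 and 59.0 CPM in DMSO, 76.0 and 71.1 CPM under GDC0068 and 88.9 and 80.8 CPM under Degrader. As in DUSP6, replicate 1 was above replicate 2 in every arm. The likeness across arms and replicates follows from choosing genes by their distance over single libraries.

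Other genes of the MAP kinase pathways were described through 6 lists, which hold 80 different tested genes. edgeR called 16 of the 80 under Degrader (9 higher, 7 lower), or 20%, beside 15.3% of all intervals. Under GDC0068 it called 5 of 80 (4 higher, 1 lower), or 6.25%, beside 3.58%. Between the drugs it called 0, as did DESeq2 and limma-voom, with 10 at an unadjusted p under 0.05. The replicate block gave 38, 16 and 8 calls of the 80, beside 30.7%, 17.8% and 10.4% of all intervals (in the order Degrader, GDC0068, between drugs). The Degrader count fell when any DMSO or Degrader library was left out, and so did the calls over all intervals. The GDC0068 count fell when any of the 6 libraries was left out, again with the calls over all intervals.

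Among the closest relatives of the set, 1 gene passed the test. Of 6 tested genes (DUSP2, DUSP7, DUSP8, DUSP9, SPRED1 and SPRED3), 1 was called lower under Degrader, where 15.3% of all intervals were called. The list median was -0.17 on the log2 scale. The block called 1 higher and 2 lower, where it called 30.7% of all intervals. Under GDC0068 edgeR called 0 of the 6, beside 3.58% of all intervals. Their log2 fold changes there were positive for 0 and negative for 6, with a median of -0.14. The gene called under Degrader without the block was DUSP8, which encodes a phosphatase of JNK and p38. It had 91.9 and 84.3 CPM in DMSO, 81.2 and 74.5 CPM under GDC0068 and 78.5 and 72.0 CPM under Degrader. The difference under Degrader was -0.23 on the log2 scale (SE 0.0658, edgeR adjusted p = 0.0370). DUSP10 and DUSP16, whose products act on the same kinases, moved the other way. The call was lost without DMSO replicate 1 (edgeR adjusted p = 0.255) and without Degrader replicate 2 (edgeR adjusted p = 0.244), and with DESeq2 (adjusted p = 0.0503). SPRED1, the closest relative of SPRED2, stood at 30.3 and 29.9 CPM in DMSO, 29.1 and 29.1 CPM under GDC0068 and 35.4 and 33.3 CPM under Degrader, and its value of 0.19 was not called (edgeR adjusted p = 0.0927). With the replicate block SPRED1 was called under Degrader (0.19, edgeR adjusted p = 0.0282) and between the drugs (0.24, edgeR adjusted p = 0.0205), and DUSP8 was called under GDC0068 (-0.18, edgeR adjusted p = 0.00239). Of the 10 atypical DUSP genes, DUSP3 (VHR) was called lower under Degrader (-0.16, edgeR adjusted p = 0.0464), with a list median of 0.02 (0 higher and 3 lower with the block), and its call was lost when any of the 6 libraries was left out (edgeR adjusted p of 0.0538 to 0.284).

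Of 12 genes often read as ERK output, edgeR called 3 higher and 0 lower under Degrader, where 15.3% of all intervals were called, and their median log2 fold change was 0.11. With the replicate block 6 were called higher and 1 lower, where 30.7% of all intervals were called. The lower one was CCND1, the gene of cyclin D1 (-0.12, edgeR adjusted p = 0.0109 with the block and 0.552 without it), named here after its values were seen. ETV1 and ETV4 encode ETS transcription factors of the PEA3 group. ETV1 rose from 11.2 and 11.1 CPM in DMSO to 15.9 and 15.6 CPM, by 0.50 (SE 0.0948, edgeR adjusted p = 0.00556). The block called ETV1 between the drugs as well (0.30, edgeR adjusted p = 0.0340). ETV4 rose from 3.67 and 2.76 CPM to 4.46 and 6.45 CPM, by 0.75 (SE 0.207, edgeR adjusted p = 0.0313). Its call was lost without DMSO replicate 1 (0.98), without DMSO replicate 2 (0.57) and without Degrader replicate 2 (0.45), with edgeR adjusted p of 0.0580, 0.161 and 0.291. PHLDA1 was called under both drugs, with 0.31 under Degrader (edgeR adjusted p = 0.0167) and 0.36 under GDC0068 (edgeR adjusted p = 0.0260). The Degrader call of PHLDA1 was lost without Degrader replicate 2 (0.18) and without DMSO replicate 1 (0.26), and its GDC0068 call without either DMSO library or GDC0068 replicate 2 (edgeR adjusted p of 0.0774 to 0.186). Under GDC0068 the list had 1 gene called higher and 0 lower (3 and 0 with the block), and a median of 0.12. Over all intervals 3.58% were called under GDC0068, and 17.8% with the block.

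**Figure D4:**
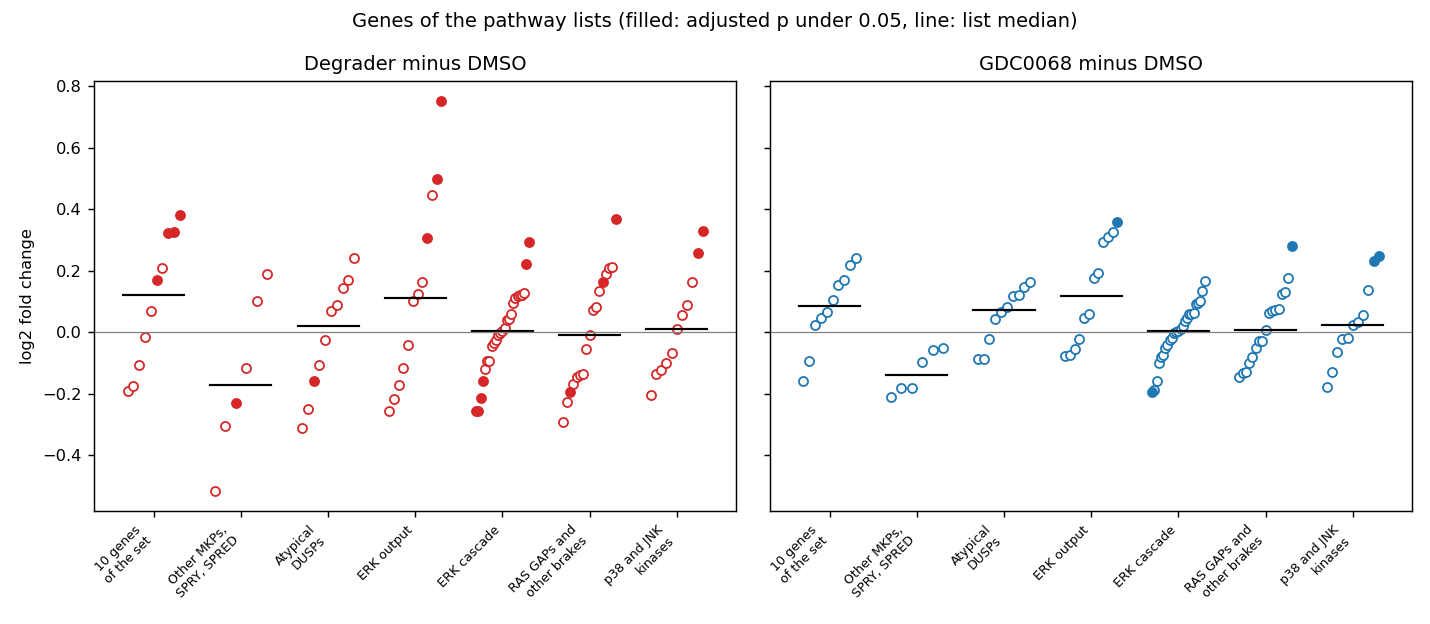
Log2 fold change (vertical axis) against DMSO of every tested gene of the 10-gene set and of each pathway list, for Degrader (left) and GDC0068 (right). Filled points have an edgeR adjusted p under 0.05 and lines are list medians; the highest filled point under Degrader is ETV4 (0.75).

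Within the relay itself, the MEK genes were called lower under Degrader and GAB1 higher. Of 25 tested genes from the adaptors to ERK and its substrates, 2 were called higher and 4 lower under Degrader, beside 15.3% of all intervals, with a median log2 fold change of 0.00. The balance turned with the replicate block, which called 7 higher and 4 lower, beside 30.7% of all intervals. MAP2K1, which encodes MEK1, fell from 76.1 and 73.3 CPM in DMSO to 63.4 and 61.7 CPM under Degrader, that is by -0.26 on the log2 scale (SE 0.0519, edgeR adjusted p = 0.00752). MAP2K2, which encodes MEK2, changed by -0.21 (edgeR adjusted p = 0.0116). The block called both under GDC0068, with -0.19 for MAP2K1 (edgeR adjusted p = 0.00324) and -0.16 for MAP2K2 (edgeR adjusted p = 0.00336). Both Degrader calls were lost without DMSO replicate 1 or Degrader replicate 2, with edgeR adjusted p of 0.0736 to 0.108. GAB1, which encodes a docking protein that recruits PI3K and SHP2, rose from 88.1 and 88.6 CPM to 111 and 106 CPM, by 0.29 (SE 0.0490, edgeR adjusted p = 0.00277), and the block called it between the drugs (0.20, edgeR adjusted p = 0.00118). PTPN11, the gene of the phosphatase SHP2, was the only 1 of the 25 called under GDC0068 (-0.20, edgeR adjusted p = 0.0454), a call lost when any of the 6 libraries was left out, with edgeR adjusted p of 0.0699 to 0.208. It was also lost with DESeq2 (DESeq2 adjusted p = 0.0553) and in the fit of the 4 libraries compared (edgeR adjusted p = 0.0728). The block called 4 genes of the list under GDC0068, 1 higher and 3 lower. Over all intervals 17.8% were called there with the block and 3.58% without it. Under Degrader PTPN11 changed by -0.16 (edgeR adjusted p = 0.0441), a call lost when any 1 of the 4 DMSO and Degrader libraries was left out (edgeR adjusted p of 0.137 to 0.214).

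Among 17 tested RAS GTPase-activating proteins and other brakes, 2 genes were called higher and 1 lower under Degrader, with a median of -0.01, where 15.3% of all intervals were called. The replicate block called 11, of which 6 were higher and 5 lower, beside 30.7% of all intervals. Under GDC0068 it called 3 higher and 1 lower, beside 17.8% of all intervals. CBLB, which encodes a ubiquitin ligase that acts on activated receptors, had 52.0 and 53.3 CPM in DMSO, 63.0 and 64.8 CPM under GDC0068 and 66.5 and 69.4 CPM under Degrader. It rose under Degrader by 0.37 (edgeR adjusted p = 0.00140) and under GDC0068 by 0.28 (edgeR adjusted p = 0.0211), the second call being lost when any 1 of the DMSO or GDC0068 libraries was left out (edgeR adjusted p of 0.0550 to 0.163). RASA1, which encodes a RAS GTPase-activating protein, changed by 0.16 (edgeR adjusted p = 0.0441) and PEA15, which encodes a protein that holds ERK in the cytoplasm, by -0.19 (edgeR adjusted p = 0.0484). RASA1 lost its call when any 1 of the 4 DMSO and Degrader libraries was left out (edgeR adjusted p of 0.0799 to 0.329), and PEA15 when any of the 6 was (0.0517 to 0.255). The block called both under GDC0068 (edgeR adjusted p of 0.0184 and 0.0430). DESeq2 called neither under Degrader (DESeq2 adjusted p of 0.113 and 0.118), nor DUSP3 (0.104) or PTPN11 (0.0968). PEA15 was not called by limma-voom (adjusted p = 0.0560), without a filter (edgeR adjusted p = 0.0510) or in the 4-library fit (edgeR adjusted p = 0.0509) either, and the 4-library fit did not call DUSP3 (edgeR adjusted p = 0.0541).

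Among the kinases that DUSP10 and DUSP16 act on, the 3 JNK genes did not share a sign. MAPK10 and MAPK8 had positive and MAPK9 negative log2 fold changes under both drugs. Without the replicate block, edgeR called MAPK9 under neither drug. Of 11 tested p38 and JNK kinase genes, 2 were called higher and 0 lower in each drug arm, with medians of 0.01 under Degrader and 0.02 under GDC0068. Over all intervals, 15.3% were called under Degrader and 3.58% under GDC0068. With the replicate block 2 were called higher and 2 lower under Degrader, and 2 higher and 1 lower under GDC0068. The block called 30.7% and 17.8% of all intervals in these comparisons. MAPK10, which encodes JNK3, had 69.7 and 72.7 CPM in DMSO, 83.8 and 85.2 CPM under GDC0068 and 86.6 and 92.3 CPM under Degrader, with log2 fold changes of 0.33 (edgeR adjusted p = 0.00242) under Degrader and 0.25 (edgeR adjusted p = 0.0329) under GDC0068. MAPK8, which encodes JNK1, had 87.9 and 95.8 CPM in DMSO, 105 and 110 CPM under GDC0068 and 108 and 112 CPM under Degrader, with 0.26 (edgeR adjusted p = 0.0107) and 0.23 (edgeR adjusted p = 0.0460). The GDC0068 call of MAPK10 was lost when any 1 of the DMSO or GDC0068 libraries was left out (edgeR adjusted p of 0.0853 to 0.220), and that of MAPK8 when any of the 6 was (0.0707 to 0.321). Outside those removals, the GDC0068 call of MAPK8 was lost under 5 of 8 alternatives: DESeq2 size factors (edgeR adjusted p = 0.0507), no filter (0.0519), a filter at a mean of 1 CPM (0.0515), the 4-library fit (0.0727) and the DESeq2 test (0.0629). The Degrader call of MAPK8 was lost without DMSO replicate 1 or Degrader replicate 2 (edgeR adjusted p of 0.132 and 0.110). MAPK9, which encodes JNK2 and is named after its values were seen, had 106 and 104 CPM in DMSO, 98.0 and 102 CPM under GDC0068 and 101 and 91.0 CPM under Degrader. Its log2 fold change was -0.12 under Degrader (edgeR adjusted p = 0.178), called with the block (-0.12, edgeR adjusted p = 0.0278), and -0.07 under GDC0068 (edgeR adjusted p = 0.574).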

How the data were processed

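PRO-seq was measured in 6 libraries of T47D cells. The authors deposited raw counts per gene interval, 1 column per library, with totals of 25371819 to 32192576. Per the submitters' processing notes, the tools were cutadapt 1.14, Bowtie 1.2.2, SAMtools 1.3.1, HISAT2 2.2.1 and limma and the builds hg38 (GRCh38) and dm3, a fly build, with no roles stated. The counting tool, use of strand, treatment of duplicates and part of the gene counted are not given in the sources used here, and duplicates or antisense reads could change a count. Coordinates are those of the deposited table, written from 1.

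Here, intervals were filtered with filterByExpr (minimum count 10, minimum total 15), scaled by TMM (factors 0.997 to 1.003) and fitted in R 4.3.3 with edgeR 4.0.16, all 6 libraries in 1 quasi-likelihood fit with a term per arm. A gene was called where its p, adjusted by Benjamini-Hochberg over 19902 intervals, was under 0.05. The SE is the log2 fold change divided by the square root of F, and differences within a replicate number use log2 CPM (prior count 2). The arms have 2 libraries each, so no rank or permutation test can pass 0.05. Replicate libraries differed by more than sampling noise (chi-square per degree of freedom of 4.98 to 6.91). The numbers are taken to mark the 2 independent experiments the series describes: libraries of 1 number deviated together from their arm means (correlation 0.177 to 0.22 across genes), and the block uses them. Alternatives were DESeq2 1.42.0 size factors or test, limma-voom (limma 3.58.1), 2 other filters, robust estimation, 4-library fits, the replicate block and leaving out each library, and, added after seeing the data, subtracting overlapping intervals. The fit was also run on simulated counts, with changes larger than those of the members and no replicate effect. That run does not show how the fit performs for changes as small as those of the members.

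The members and lists were chosen with earlier results of these data known. Genes named were the members, up to 3 called genes per list and comparison with the smallest adjusted p, SPRED1, CCND1 and MAPK9 (chosen after their values were seen), and the 3 profiles closest to the called member with the largest change. RefSeq promoters matched 8 of 10 members.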

Additional observations from a re-analysis of the deposited data

Results flagged for a closer look

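The drugs' effects on SPRED2 differed when tested directly in the fit with the replicate number as a block: Degrader was above GDC0068 by 0.22 on the log2 scale (SE 0.0343, edgeR adjusted p = 1.19e-04). Both replicates showed the direction, with 0.23 and 0.22. Without the block the same difference of 0.22 was not called (edgeR adjusted p = 0.0965). Over the other alternatives, leaving out libraries included, edgeR, DESeq2 and limma-voom adjusted p lay between 0.0646 and 0.532. With 2 libraries per arm, single libraries could not be examined as outliers.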

How the results depend on the processing

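Outside the leave-one-out fits, every member kept the sign of its log2 fold change in all 3 comparisons. Of those values 240 kept their side of the threshold, 5 gained a call and 1 lost it. The 240 include SPRY4 under GDC0068 with DESeq2, which had no adjusted p and was taken as not called. The gains were DUSP4 under Degrader (robust estimation and replicate block), DUSP4 and SPRED2 under GDC0068 and SPRED2 between the drugs (replicate block), and the loss was DUSP16 under Degrader (DESeq2). With the replicate block, members called numbered 2 under GDC0068 and 1 between the drugs, the list genes 38, 16 and 8, and all intervals 6114, 3540 and 2065, against 3039, 712 and 53 without it (in the order Degrader, GDC0068, between drugs). The block changed no other member's call. Between the drugs, all intervals called numbered 136 with DESeq2, 116 with robust estimation and 23 in the 4-library fit, and list genes called under GDC0068 numbered 3 with DESeq2 and in the 4-library fit. Leaving out 1 library at a time gave 1 to 4 members called under Degrader and 0 in the other comparisons. The list genes called were 4 to 18 under Degrader, 0 to 3 under GDC0068 and 0 between the drugs. All intervals called were 931 to 3217, 37 to 546 and 5 to 63. The members' median ran from 0.070 to 0.17, from 0.044 to 0.083 and from -0.024 to 0.020. Its sign between the drugs turned without GDC0068 replicate 1 or 2, and the within-replicate medians there, 0.03 and 0.00, are not below 0 either. Leaving out a library turned the sign of DUSP1 (-0.10 to 0.051) and SPRY2 (-0.032 to 0.16) under Degrader and of SPRY4 under GDC0068 (-0.049 to 0.093). Between the drugs it turned DUSP1 (-0.14 to 0.011), SPRY1 (-0.10 to 0.086), SPRY2 (-0.30 to 0.019), and, among the named list genes, DUSP8, MAPK8, PHLDA1 and RASA1 (-0.11 to 0.016, -0.0066 to 0.071, -0.18 to 0.063 and -8.0e-04 to 0.077), none of them called there. SPRY4, with 126 to 158 counts per library, has the least depth.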
